A study of Mus musculus with 8 samples.

Results

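Collagens and laminins are the bulk of the extracellular matrix that an adipocyte makes around itself, and the genes described here are the mouse protein-coding genes whose symbols follow the collagen chain pattern (Col, a number, a, a number) or the laminin chain pattern (Lama, Lamb or Lamc and a number), together with the nidogens Nid1 and Nid2, fibronectin (Fn1), perlecan (Hspg2) and Sparc. The rule found 60 genes of the 43629 in the count table. They comprised 11 fibrillar collagens, 20 basement membrane genes (collagen IV chains, laminins, nidogens and perlecan) and 29 other genes (the collagen VI family, fibril-associated, network-forming and membrane collagens, the endostatin-type collagens Col15a1 and Col18a1, Fn1 and Sparc). Messenger RNA was sequenced from 3T3-L1 cells, an established mouse preadipocyte line that had been turned into adipocytes with insulin, dexamethasone, isobutylmethylxanthine and rosiglitazone. On day 8 the cells were left untreated, given the inhibitor A66 (2 µM by the sample labels), given palmitate (0.5 mM, bound to albumin) or given palmitate plus A66, all for 24 h, with 2 cultures in each of the 4 groups and no other genotype or strain. The study's methods call the cultures biological repeats, and they state another A66 dose and a DMSO vehicle for the control cells, whereas the labels name neither a vehicle nor an albumin control. Groups follow the sample labels throughout, so every direction given below rests on them. Whether these labels are right was not tested here, and an exchange of untreated and A66 across the series would turn every A66 direction round and make each palmitate comparison the other one. A66 is a selective inhibitor of the alpha isoform of the class I PI3K catalytic subunit, the isoform that carries most insulin signalling, and palmitate is a saturated fatty acid used to load adipocytes with lipid.

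Fibrillar collagens assemble as triple helices that are secreted as procollagens, trimmed at both ends and cross-linked into the fibrils that bear load around fat cells. The basement membrane is the thin sheet that lies directly on each adipocyte, built from a collagen IV network and a laminin network that nidogens and perlecan hold together. Collagen VI forms beaded filaments between that sheet and the fibrils, and is a characteristic collagen of adipose tissue. A laminin is a trimer of an alpha, a beta and a gamma chain, and a collagen trimer is made of chains from 1 or more genes, so the balance between partner chains matters as well as their level.

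The libraries held 42247091 to 57529803 counts assigned to genes. The 60 genes took 2.35% to 2.61% of the counts of a library. That share was 2.55% and 2.49% in the untreated, 2.41% and 2.43% in the A66, 2.48% and 2.61% in the palmitate, and 2.36% and 2.35% in the palmitate plus A66 libraries. Both A66 libraries lay below both untreated ones, and both palmitate plus A66 libraries below both palmitate ones. Adipocyte markers (Adipoq, Fabp4, Plin1, Cidec, Lpl, Pparg, Cfd and Slc2a4) were all detected, and their summed level was 17600.8 to 17680.8 CPM (counts in every 1000000 of the library, after scaling) in the untreated, 17349.9 to 18014 in the A66, 15602 to 16540.3 in the palmitate and 15120.2 to 16204 in the palmitate plus A66 libraries. The preadipocyte list (6 genes) summed to between 337 and 365 CPM with Dlk1 at 0 counts in every library. Of its other genes, Pdgfrb averaged 206.5, Pdgfra 97.3, Thy1 30.7, Ly6a 18.5 and Cd34 0.293 CPM. The macrophage list (5 genes) summed to between 10.2 and 16.1 CPM with Adgre1 at 0, Cd14 at a mean of 8.64, Cd68 at 3.89, Csf1r at 0.195 and Ptprc at 0.00241. The endothelial list (4 genes) summed to between 0.847 and 1.28 CPM with Kdr at 0. The skeletal muscle list (3 genes) summed to between 40.7 and 50.4 CPM, nearly all from Des, with Myod1 at 0. In these bulk libraries fewer cells of a type and less RNA per cell cannot be told apart.

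Of the 60 genes, 41 had enough counts to be tested across all 8 libraries (9 fibrillar, 14 basement membrane and 18 other), and 39 in the comparison of A66 with untreated cells, which was fitted on 4 libraries alone and in which Col14a1 and Col17a1 were too low. The 19 untested genes never exceeded 16 counts in a library. They were the fibrillar chains Col2a1 and Col24a1, the basement membrane chains Col4a3, Col4a4, Col4a6, Lama1, Lama3 and Lamc3, and Col6a4, Col6a6, Col8a2, Col9a1, Col9a2, Col10a1, Col13a1, Col19a1, Col22a1, Col25a1 and Col26a1. Lama1 and Col25a1 had 0 counts in every library, which allows up to 3 counts, or 0.0519 to 0.0706 CPM depending on the library, by counting error alone. Col2a1 and Col10a1, the cartilage collagens, had at most 4 and 5 counts and were near or under that limit, while Lama3, the alpha chain of the skin laminin, had 2 to 16 counts.

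Levels of different genes were compared as CPM per kilobase of the longest annotated transcript, with the mean and SD over the 8 libraries. Sparc, a collagen-binding glycoprotein, stood at 607 ± 31.8, and the 3 most abundant genes after it were Col3a1 at 592 ± 32.9, Col1a2 at 585 ± 25.1 and Fn1, the cell-adhesive glycoprotein, at 385 ± 18.8 CPM per kilobase. The order of Sparc, Col3a1 and Col1a2 did not exceed their spread over libraries, and Fn1 did not differ beyond that spread from Col6a1 at 371 ± 31.1. Basement membrane genes followed, led by the 2 collagen IV chains of most tissues, Col4a1 at 335 ± 13.5 and Col4a2 at 212 ± 10.2, and by Nid1 at 112 ± 3.05. Col6a2 at 204 ± 20.3 lay within the spread of Col4a2, and Col6a3 at 170.2 ± 10.1 and Col5a2 at 146 ± 3.39 came next. Col1a1 was at 108 ± 11.7, which overlapped Nid1.

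**Figure D1:**
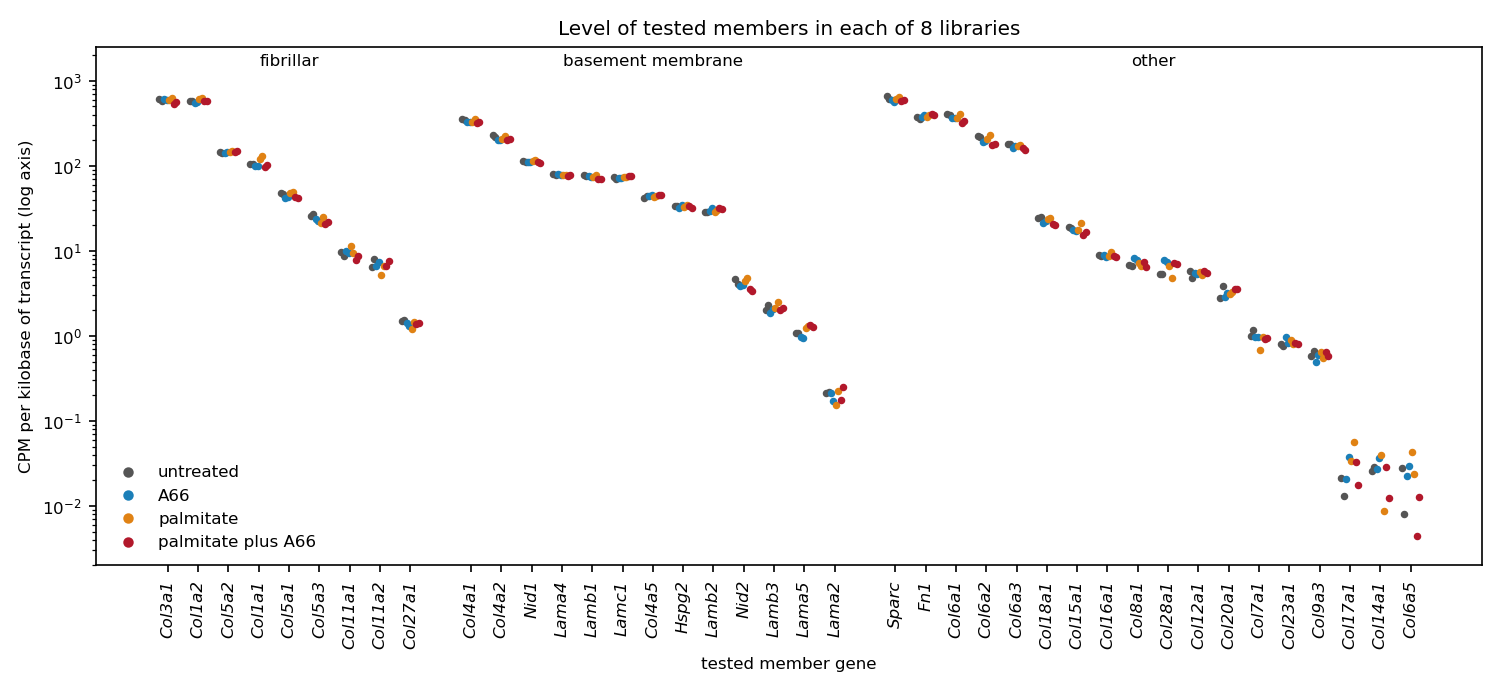
Level of tested genes in each of the 8 libraries, as CPM per kilobase of transcript on a log axis, grouped by class and coloured by treatment. The genes span from Sparc at 607 to Col6a5 at 0.0216 CPM per kilobase, and for most of them the 8 points lie close together.

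A single set of laminin chains stood above the others. Lama4, the alpha chain of fat, muscle and vessel basement membranes, was at 78.6 ± 1.07, Lamb1 at 74.2 ± 3.07 and Lamc1 at 73.8 ± 2.08 CPM per kilobase, of which the last 2 did not differ beyond their spread. Within a library the ratio of Lamb1 to Lama4 was 0.944 ± 0.0315 and that of Lamc1 to Lama4 was 0.939 ± 0.0337 (SD, n = 8). Lamb2, the alternative beta chain, was at 30 ± 1.39, whereas the other alpha chains were far lower, Lama5 at 1.16 ± 0.156 and Lama2, the muscle chain, at 0.202 ± 0.0308. Lamb3, a beta chain of epithelial laminin, was also low at 2.14 ± 0.205.

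Collagen chains with a shared trimer were not level with each other. Col1a1 and Col1a2 encode the chains of type I collagen, a trimer with more of the first chain than of the second, yet the ratio of Col1a1 to Col1a2 per kilobase was 0.184 ± 0.0122 over the 8 libraries. The ratio depends on the transcript taken for each length and on how the reads of each gene were counted, and neither was tested. Col4a1 exceeded Col4a2 by a ratio of 1.58 ± 0.0211, with the lowest library at 1.55 and the highest at 1.62. Col6a2 stood at 0.548 ± 0.0139 of Col6a1 and Col6a3 at 0.46 ± 0.0221 of Col6a1.

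The neighbouring pairs Col4a1 with Col4a2 and Col6a1 with Col6a2 are shown as sequence, the first because its level ratio varied least and the second because both its genes fell with A66. Col4a1 and Col4a2 lie head to head on chromosome 8 with RefSeq starts 21 bases apart, so that 1 stretch of DNA holds both starts. Col6a2 and Col6a1 lie in the same direction on chromosome 10 with 85162 bases between them and no shared start. The windows below are from RefSeq on build GRCm38.p6 and run from 250 bases before to 50 after the start, 5′ to 3′ on the strand of the gene. They cover chr8:11312777-11313076 (minus strand) for Col4a1, chr8:11312555-11312854 (plus strand) for Col4a2, chr10:76725995-76726294 (minus strand) for Col6a1 and chr10:76623581-76623880 (minus strand) for Col6a2. Capitals mark matches on either strand to GGGCGG, the core of the GC box, and to CCAAT, the CCAAT box, which do not overlap here.
Col4a1: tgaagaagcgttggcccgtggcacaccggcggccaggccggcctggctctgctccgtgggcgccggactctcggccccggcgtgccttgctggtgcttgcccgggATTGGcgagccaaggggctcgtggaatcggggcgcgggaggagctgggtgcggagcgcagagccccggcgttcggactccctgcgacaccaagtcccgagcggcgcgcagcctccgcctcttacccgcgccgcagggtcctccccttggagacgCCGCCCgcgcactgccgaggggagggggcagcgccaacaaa
Col4a2: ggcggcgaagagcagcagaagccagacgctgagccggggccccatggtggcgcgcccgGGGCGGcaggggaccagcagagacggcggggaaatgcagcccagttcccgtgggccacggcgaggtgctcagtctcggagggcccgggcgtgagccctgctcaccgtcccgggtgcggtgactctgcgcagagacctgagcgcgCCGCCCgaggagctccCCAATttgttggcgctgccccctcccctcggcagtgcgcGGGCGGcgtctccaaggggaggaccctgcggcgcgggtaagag
Col6a1: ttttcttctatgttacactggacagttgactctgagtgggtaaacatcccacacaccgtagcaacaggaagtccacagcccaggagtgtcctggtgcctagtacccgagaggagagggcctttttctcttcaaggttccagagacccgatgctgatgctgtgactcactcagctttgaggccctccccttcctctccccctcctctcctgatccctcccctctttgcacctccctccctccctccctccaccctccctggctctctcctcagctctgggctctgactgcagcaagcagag
Col6a2: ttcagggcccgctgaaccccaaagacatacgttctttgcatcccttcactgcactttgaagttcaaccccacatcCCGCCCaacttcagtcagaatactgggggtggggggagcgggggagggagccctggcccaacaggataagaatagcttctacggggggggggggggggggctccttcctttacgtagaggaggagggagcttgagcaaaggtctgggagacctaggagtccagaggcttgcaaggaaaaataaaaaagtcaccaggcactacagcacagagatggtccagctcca

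Both collagen IV windows held GGGCGG and CCAAT, the Col6a2 window held GGGCGG without CCAAT, and the Col6a1 window held neither. RefSeq windows were matched for 43 of the 60 genes, 31 of them tested. GGGCGG, on either strand, was in 67.7% of those 31 windows and in 35.7% of all 32851 mouse windows of this length, CCAAT in 38.7% and 37.4%, and TATAAA in 9.68% and 13.6%. The windows of the tested genes were also richer in G and C, with a median of 60% against 52.7% over all windows. Among the tested genes GGGCGG was in 6 of 7 fibrillar, 8 of 10 basement membrane and 7 of 14 other windows. These matches are descriptions of letters and not of binding sites.

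Palmitate against untreated cells asked what palmitate with its albumin carrier did in cells given no inhibitor. No albumin control is named, so the fatty acid and its carrier cannot be told apart. Among the 41 genes, Col1a1 alone was called, and it rose. A gene was called when the p of edgeR's quasi-likelihood F test, after Benjamini-Hochberg correction across every gene tested, was below 0.05. Over all 14587 genes tested, 0.631% were called higher and 0.542% lower, against 1 and 0 of the 41 here. Their median log2 fold change was 0.028, beside 0.0005 for all genes, and a log2 fold change of 1 would be a doubling. At an unadjusted p under 0.05 there were 4 higher and 3 lower, where all genes gave 6.42% higher and 5.6% lower. Lpl, a lipase that marks adipocytes, was lower in the same comparison (log2 fold change -0.19, edgeR adjusted p = 0.0331), and its part in these values was not tested.

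Col1a1 (chromosome 11, 94936224 to 94953042 on GRCm38) encodes the first chain of type I collagen. Its level was 631 and 626 CPM in the untreated, 586 and 595 in the A66, 717 and 773 in the palmitate, and 576 and 609.5 in the palmitate plus A66 libraries. The palmitate libraries stood above all 6 others, and the remaining groups lay close to each other. The log2 fold change for palmitate was 0.25 ± 0.044 (SE), with an edgeR adjusted p of 0.00331. It was called with each library left out in turn (log2 fold change 0.19 to 0.30). Its partner Col1a2 had 3098 and 3069 CPM untreated, 2974 and 3036 with A66, 3273 and 3384 under palmitate, and 3079 and 3117 with both. The palmitate libraries were again the highest 2 of the 8, but by less: 0.11 ± 0.041, edgeR adjusted p = 0.24 (95% interval 0.025 to 0.19). DESeq2, and edgeR without the filter on low counts, did call Col1a2 higher. The ratio of Col1a1 to Col1a2 per kilobase was 0.184 and 0.184 untreated, 0.178 and 0.177 with A66, 0.198 and 0.206 under palmitate, and 0.169 and 0.176 with both, so that it too was highest in the palmitate libraries. With 2 cultures against 2, an exact permutation test of such a ratio cannot give a p under 0.333, so none was used.

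The other fibrillar chains gave no call with palmitate. Col3a1, the chain of the homotrimer that mixes with type I fibrils, had a log2 fold change of 0.028 with a 95% interval of -0.073 to 0.13. Col5a3, a minor fibril-nucleating chain, was at 157 and 165 CPM untreated and at 129 and 153 with palmitate. Both palmitate values were below both untreated ones, but the 2 palmitate cultures differed by more than the gap, and the log2 fold change of -0.20 ± 0.058 had an edgeR adjusted p of 0.115. Without palmitate replicate 2, Col11a1 and Col28a1 were also called higher and Col5a3, Col7a1 and Col11a2 lower, giving 3 genes in each direction, and without untreated replicate 1 Col11a2 was called lower. The basement membrane genes had a median log2 fold change of 0.013, and none of the 14 was called in this comparison. Over all genes 0.631% were called higher and 0.542% lower, a share at which few calls would fall among 14 genes.

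A66 against untreated cells asked what the inhibitor did in cells given no fatty acid. A few collagens, among them 2 of the 4 tested collagen VI chains, fell slightly, and the short-chain collagen Col8a1 and the von Willebrand domain collagen Col28a1 rose. Of 39 genes tested, 4 were called lower (Col6a1, Col6a2, Col18a1 and Col5a3) and 2 higher (Col28a1 and Col8a1). Over all 14158 genes, 0.77% were called lower and 1.07% higher. The median of the 39 was -0.086, beside -0.0011 for all genes, with 25 below 0. At an unadjusted p under 0.05, 3 were higher and 11 lower, where all genes gave 6.57% and 6.24%. By class it was -0.050 for the fibrillar, -0.068 for the basement membrane and -0.12 for the other genes.

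Col28a1 (chromosome 6) had the largest change among those called. Its level was 22.9 and 22.6 CPM untreated, 33.3 and 31.3 with A66, 28.4 and 20.1 under palmitate, and 30.3 and 29.6 with both. The A66 libraries were above the untreated ones without overlap, while the 2 palmitate cultures stood far apart. The log2 fold change for A66 was 0.51 ± 0.066 (SE), edgeR adjusted p = 0.000101, and it was called with each library left out in turn. Col8a1 (chromosome 16), a collagen of vessel walls and the cornea, had 35.1 and 33.5 CPM untreated, 42.1 and 39.5 with A66, 36.5 and 33.9 under palmitate, and 38 and 32.6 with both. Both A66 values were the highest of the 8. Its log2 fold change was 0.26 ± 0.059, edgeR adjusted p = 0.022, but the call was lost without A66 replicate 1 (0.377) or 2 (0.0648) and with all 8 libraries in the fit (0.0637).

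Of the 3 abundant chains of collagen VI, 2 were called lower with A66. Col6a1 (chromosome 10, 76708792 to 76726168) had 1668 and 1626 CPM untreated, 1486 and 1494 with A66, 1503 and 1672 under palmitate, and 1327 and 1387 with both. The A66 values lay below the untreated ones, and the values with both agents were the lowest 2 of the 8. Col6a2 (chromosome 10, 76595762 to 76623630) had 1036 and 1016 CPM untreated, 899.6 and 917 with A66, 971 and 1078 under palmitate, and 814 and 844 with both, which is the same order. For A66 against untreated the log2 fold change of Col6a1 was -0.14 ± 0.036, edgeR adjusted p = 0.0387, and that of Col6a2 was -0.17 ± 0.037, edgeR adjusted p = 0.0114. Col6a3, the longest chain of the trimer, had 1829.9 and 1851 CPM untreated and 1644 and 1715 with A66, also without overlap, and its log2 fold change of -0.13 ± 0.036 missed the threshold (edgeR adjusted p = 0.0757). It was called lower with scaling by library totals alone, by DESeq2, without the filter on low counts and without untreated replicate 1. The ratios among the 3 chains moved less than the chains: Col6a2 to Col6a1 per kilobase was 0.547 and 0.551 untreated and 0.534 and 0.541 with A66.

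Col18a1 (chromosome 10), the collagen that releases endostatin, had 138 and 139.7 CPM untreated, 119 and 125 with A66, 132 and 135 under palmitate, and 115 and 111 with both. No A66 value reached an untreated one. Its log2 fold change for A66 was -0.18 ± 0.043, edgeR adjusted p = 0.0251. Col5a3 (chromosome 9) had 147 and 139 CPM with A66 against 157 and 165 untreated, and its log2 fold change was -0.17 ± 0.044, edgeR adjusted p = 0.0391. None of the 4 falls was called without either A66 library (0 lower without replicate 1 and 0 without replicate 2), and 7 genes were called lower without untreated replicate 2 (Col15a1, Col18a1, Col4a2, Col5a1, Col6a1, Col6a2 and Sparc). Without untreated replicate 1, Col6a3 and Col20a1 were called lower and Fn1 higher, and Col6a1 was not called (edgeR adjusted p = 0.0559), and without untreated replicate 2, Col5a3 was not (0.0723). With all 8 libraries in the fit, Col18a1 was the only fall called and Col28a1 the only rise. With libraries scaled by their totals alone there were 7 falls and 2 rises here, and 45% of the calls over all genes were rises, against 58.2% in the main scaling.

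The 14 basement membrane genes gave no call for A66 in the main fit, where 0.77% of all genes were called lower and 1.07% higher. The log2 fold change of Lama4 was 0.0054 (95% interval -0.073 to 0.084), that of Lamc1 0.0017 (-0.079 to 0.082) and that of Nid1 -0.026 (-0.10 to 0.051). Col4a2 had 1482 and 1399.7 CPM untreated and 1314 and 1309 with A66, a log2 fold change of -0.13 ± 0.037, edgeR adjusted p = 0.0757. Col4a1 had 2351 and 2272 CPM untreated and 2159 and 2173 with A66, a log2 fold change of -0.091 ± 0.035, edgeR adjusted p = 0.25. Both chains were lower in both A66 libraries, by an amount that edgeR's main fit did not call. Col4a2 was called lower by DESeq2, with library totals alone as the scaling, without the filter on low counts, with the length correction, with the GC correction and replicate block together, and without untreated replicate 2.

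**Figure D2:**
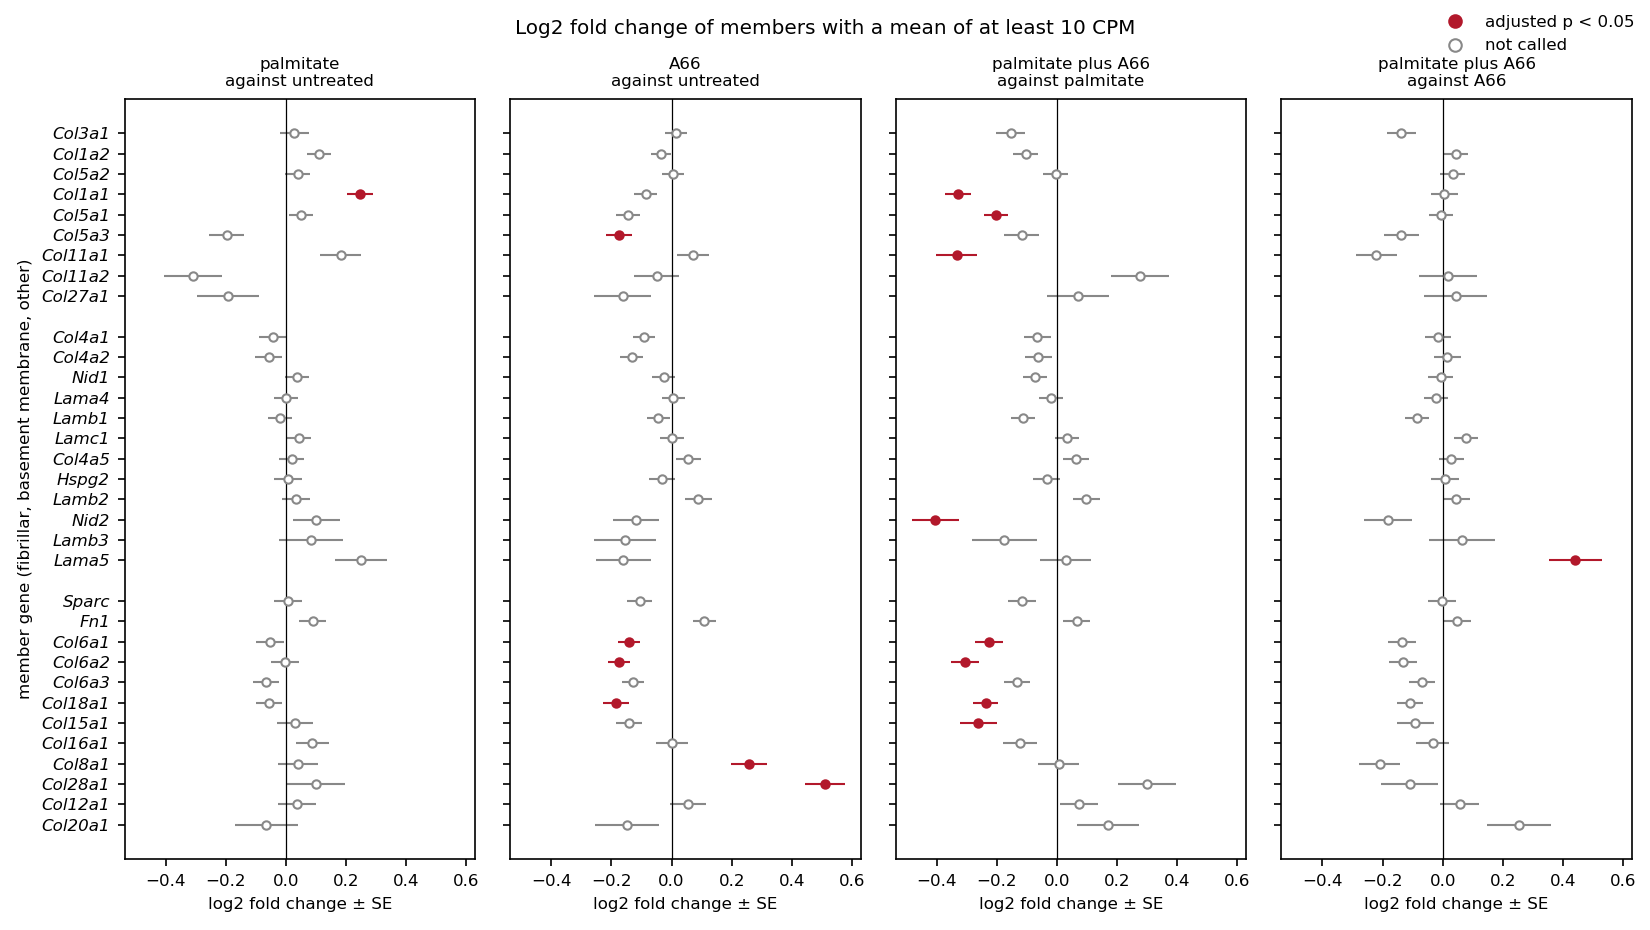
Log2 fold change with its SE for the 33 genes with a mean of at least 10 CPM, in 4 comparisons, with fibrillar, basement membrane and other genes from top to bottom and calls at an adjusted p under 0.05 filled. All points but 1 each of Col28a1, Nid2 and Lama5 lie within 0.4 of 0, and Nid2 and Lama5 are the 2 basement membrane genes called.

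Palmitate plus A66 against palmitate asked what the inhibitor did in cells loaded with the fatty acid, and it gave the most calls. There were 8 genes called lower, the fibrillar Col1a1, Col5a1 and Col11a1, the basement membrane gene Nid2, and Col6a1, Col6a2, Col15a1 and Col18a1. None of the 41 was called higher in edgeR's test, and DESeq2 also called none higher. At an unadjusted p under 0.05, 4 were higher and 15 lower, where all genes gave 6.79% and 7.61%. Over all 14587 genes, 1.84% were called lower and 0.973% higher. The median of the 41 was -0.065, beside -0.0008 for all genes, and by class it was -0.12 for the fibrillar, -0.027 for the basement membrane and -0.12 for the other genes. The macrophage list summed to 11.7 to 13 CPM with palmitate and 15.8 to 16.1 with both, and the preadipocyte list to 358.8 to 360.3 and 341.8 to 342.5. The summed adipocyte markers overlapped, at 15602 to 16540.3 and 15120.2 to 16204 CPM. Among them Cidec (log2 fold change -0.23, edgeR adjusted p = 0.0373) and Slc2a4 (-0.23, 0.00762) were called lower. The other adipocyte markers were not called. Plin1 was at -0.15, Adipoq at -0.043, Lpl at -0.038 and Cfd at -0.014, while Fabp4 (0.021) and Pparg (0.031) were slightly positive. Mitochondrial genes took 10.6% and 10.9% of the counts with palmitate and 11.4% and 11.8% with both, the highest 2 of the 8 libraries, and the 10 most abundant genes took 13% and 13.4% against 13.9% and 14.8%. The part of these in the changes was not tested.

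Among fibrillar chains, Col1a1 fell from the level that palmitate had raised: its log2 fold change was -0.33 ± 0.044, edgeR adjusted p = 0.000175, with values given above. The same palmitate libraries enter this comparison and the one of palmitate with untreated cells, so the rise and the fall of Col1a1 are not independent. Against A66 alone, palmitate plus A66 left Col1a1 at a log2 fold change of 0.0061 (95% interval -0.085 to 0.097). Col5a1 (chromosome 2), the chain that starts type I fibrils, had 406 and 393 CPM untreated, 357 and 363 with A66, 406 and 420 under palmitate, and 363 and 354 with both. All 4 libraries with A66 lay below all 4 without it. Its log2 fold change was -0.20 ± 0.040 in the presence of palmitate, edgeR adjusted p = 0.00545, and -0.15 ± 0.039 in its absence, edgeR adjusted p = 0.056. The latter was called with scaling by library totals alone, by DESeq2, without the filter on low counts, with a correction for transcript length and without untreated replicate 2. The call in the presence of palmitate was lost without palmitate replicate 2 (0.065) or palmitate plus A66 replicate 2 (0.0809). Col5a2, its usual partner, did not follow, with a log2 fold change of -0.0043 (95% interval -0.091 to 0.082). The ratio of Col5a1 to Col5a2 per kilobase was accordingly 0.328 and 0.33 untreated, 0.298 and 0.295 with A66, 0.333 and 0.33 under palmitate, and 0.297 and 0.281 with both. Every library with A66 was below every library without it in this ratio.

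Col11a1 (chromosome 3), a fibril-nucleating chain best known from cartilage, had 74.8 and 66.6 CPM untreated, 76.3 and 71.7 with A66, 87.2 and 72.9 under palmitate, and 60.6 and 66.5 with both. The values with both agents were below the palmitate ones, and 1 palmitate culture stood well above the other. Its log2 fold change was -0.33 ± 0.068, edgeR adjusted p = 0.00665, but it was not called without palmitate replicate 1 (0.132), without palmitate plus A66 replicate 1 (0.105) or by DESeq2 (0.115). Col3a1 had 3444 and 3234 CPM untreated, 3424 and 3306 with A66, 3272 and 3537 under palmitate, and 2953 and 3169 with both. The lowest 2 values were those with both agents, and the log2 fold change of -0.15 ± 0.049 had an edgeR adjusted p of 0.104. Col3a1 was called lower with scaling by library totals alone, by DESeq2 and without the filter on low counts.

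Of the 4 tested collagen VI chains, the same 2 fell in this comparison. The log2 fold change was -0.23 ± 0.047 for Col6a1 (edgeR adjusted p = 0.00777), -0.31 ± 0.046 for Col6a2 (0.000514) and -0.13 ± 0.044 for Col6a3, which was not called (0.117). DESeq2, and edgeR without the filter on low counts, did call Col6a3 lower. Col6a2 was called with each library left out in turn, whereas Col6a1 was not called without palmitate replicate 2 (0.137) or palmitate plus A66 replicate 1 (0.119). The ratio of Col6a2 to Col6a1 per kilobase was 0.57 and 0.568 with palmitate and 0.54 and 0.536 with both. The fourth tested chain, Col6a5, had at most 23 counts in a library and gives no usable fold.

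Both endostatin-type collagens fell in this comparison. Col18a1 had a log2 fold change of -0.24 ± 0.043, edgeR adjusted p = 0.00241, and was called with each library left out in turn. Col15a1 (chromosome 4), its relative at the edge of basement membranes, had 99.8 and 96.8 CPM untreated, 90.2 and 87.8 with A66, 91.2 and 109 under palmitate, and 80.3 and 86.8 with both. Its 2 palmitate values differed more than those of any other group, and the gap from the lower one to the values with both agents was small. The log2 fold change was -0.26 ± 0.061, edgeR adjusted p = 0.0163, and the call was lost without palmitate replicate 2 (-0.13, adjusted p = 0.416) or palmitate plus A66 replicate 1 (adjusted p = 0.198).

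Nid2 (chromosome 14), the less abundant nidogen, was the 1 basement membrane gene that fell. It had 22.6 and 19.7 CPM untreated, 19.1 and 19.6 with A66, 21.8 and 23.5 under palmitate, and 17.6 and 16.6 with both. The 2 libraries with both agents were the lowest of the 8. Its log2 fold change was -0.40 ± 0.079, edgeR adjusted p = 0.00497, and it was lost without palmitate replicate 2 or palmitate plus A66 replicate 2 (both 0.0773). Nid2 shares 437 exonic bases with Rtraf on the opposite strand, 8.45% of its exons, and whether the counting used strand is not given in the sources used here. Nid1 had 694 and 712 CPM with palmitate and 685 and 652 with both, a log2 fold change of -0.073 (95% interval -0.16 to 0.012). Leaving out 1 library moved the count of falls in this comparison to 4 without palmitate replicate 2, 5 without palmitate plus A66 replicate 1, 6 without palmitate plus A66 replicate 2 and 9 without palmitate replicate 1 (Col3a1 and Col5a3 joining and Col11a1 dropping out). Col28a1 was called higher without palmitate replicate 1 and Col11a2 without palmitate replicate 2. Scaling by library totals alone gave 9 falls, and 23.4% of the calls over all genes were then rises, against 34.6%.

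**Figure D3:**
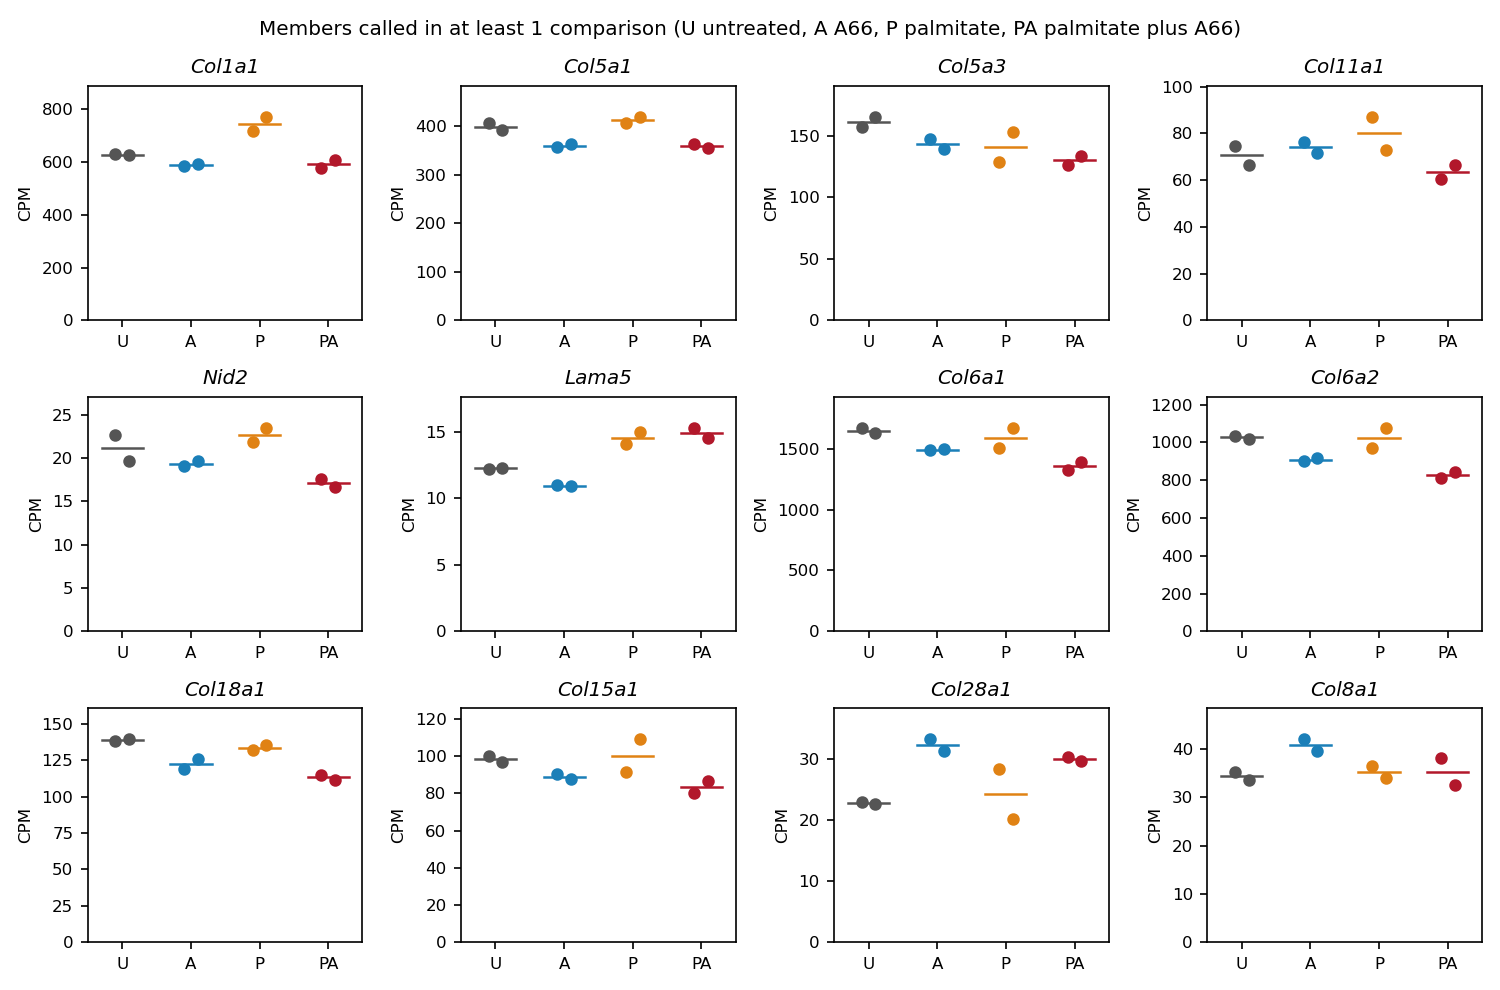
CPM of the 12 genes called in at least 1 comparison, with 1 point for each culture and a line at the mean of the 2 cultures in each group. Col1a1 is highest in the palmitate cultures, Col5a1, Col6a2 and Col18a1 are lower in cultures with A66 than in their counterparts, and Lama5 is higher in the cultures with palmitate.

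The A66 effect without and with palmitate was measured on separate libraries, so both can be set side by side. Col6a1, Col6a2 and Col18a1 were called lower in both, which is 75% of the 4 falls without palmitate and 37.5% of the 8 with it. Only Col18a1 was shared when all 8 libraries were fitted together, and 0 were without either A66 library. Over all genes tested in both, 51.4% of the falls without and 21.1% of those with palmitate were shared. Of the 39 genes tested in both, 24 had the same sign (61.5%, against 58.6% of all genes), with Pearson's r = -0.398 and Spearman's rho = 0.104 across genes, which are not independent replicates and which share their libraries. All 24 were among the 33 genes with a mean of at least 10 CPM (72.7% of them, r = 0.498, rho = 0.405), a limit that was not applied to the share over all genes. Col28a1, at 0.51 without palmitate, was at 0.30 ± 0.096 with it (edgeR adjusted p = 0.11). The latter was 0.57, and called, without palmitate replicate 1 and 0.075 without palmitate replicate 2. Col8a1, at 0.26 without, was at 0.005 ± 0.067 (95% interval -0.13 to 0.14). Col5a3 was at -0.17 without and -0.12 ± 0.058 with palmitate (edgeR adjusted p = 0.368).

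The difference between the 2 A66 effects was tested as the interaction of A66 and palmitate, and no collagen or laminin gene was called by edgeR in it. Over all genes, 0.00686% were called higher and 0% lower, and of the 41 genes 3 had an unadjusted p under 0.05 upward and 6 downward, where all genes gave 3.56% and 4.35%. The interaction of Col1a1 was -0.24 ± 0.062, edgeR adjusted p = 0.295, and that of Col11a1 -0.40 ± 0.096, edgeR adjusted p = 0.28. DESeq2 called Col1a1 lower (adjusted p = 0.019). For Col8a1 it was -0.25 ± 0.095, edgeR adjusted p = 0.501. Without palmitate replicate 2, edgeR called Col11a1 lower.

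**Figure D4:**
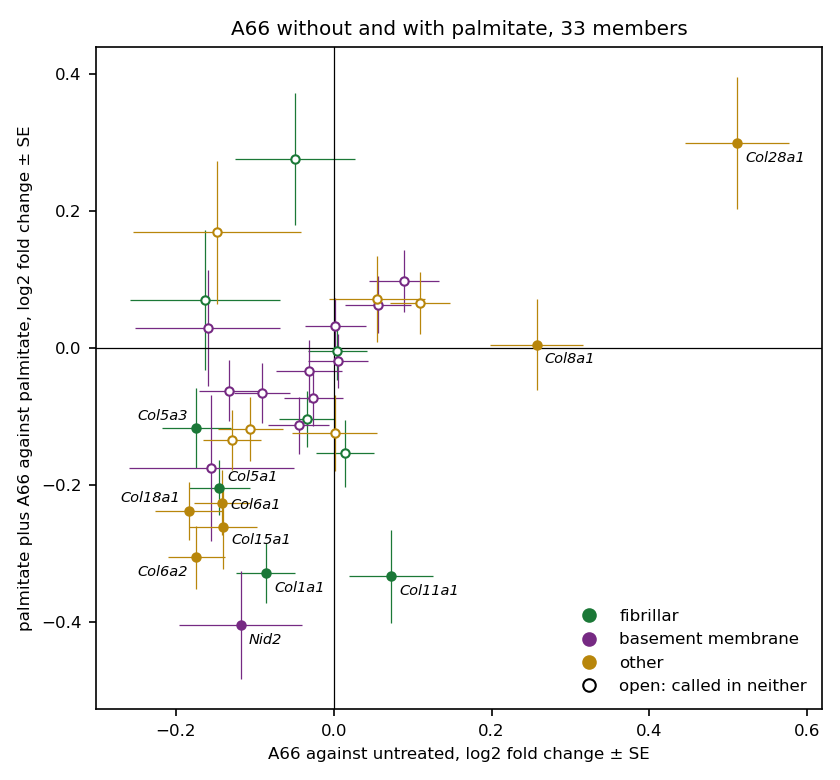
Log2 fold change for A66 without palmitate (horizontal) and with palmitate (vertical), each with its SE, for 33 genes with a mean of at least 10 CPM, coloured by class. Genes called in either comparison are filled and named, and Col6a1, Col6a2 and Col18a1, called in both, lie in the lower left.

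Palmitate plus A66 against A66 asked what palmitate with its albumin carrier did in cells given the inhibitor. It called 1 of the 41 genes, Lama5, which rose. Over all genes, 1.46% were called higher and 1.27% lower. Their median was -0.0067, beside 0.0004 for all genes, and by class it was 0.0061 for the fibrillar, 0.022 for the basement membrane and -0.099 for the other genes. At an unadjusted p under 0.05, 3 were higher and 8 lower, where all genes gave 7.36% and 7.19%. Without palmitate plus A66 replicate 1, Col8a1 was called lower. With library totals alone as the scaling Lama5 was again the 1 call, and 40.4% of all calls were rises, against 53.5%. Lama5 (chromosome 2, 180176373 to 180225859) encodes the alpha chain of many epithelial and vessel laminins. It had 12.2 and 12.3 CPM untreated, 11 and 10.9 with A66, 14.1 and 15 under palmitate, and 15.3 and 14.5 with both. All 4 libraries with palmitate were above all 4 without it. The log2 fold change was 0.44 ± 0.088, edgeR adjusted p = 0.00463, and it was lost without A66 replicate 1 (0.0719) or palmitate plus A66 replicate 1 (0.0959). Without the inhibitor, palmitate gave Lama5 a log2 fold change of 0.25 ± 0.087, edgeR adjusted p = 0.201, and the interaction was 0.19 ± 0.12, edgeR adjusted p = 0.75. The partner chains did not move with it, with Lamb1 at -0.085 (95% interval -0.17 to 0.00023) and Lamc1 at 0.079 (-0.0049 to 0.16). Lama5 remained far below Lama4, at a ratio per kilobase of 0.0121 to 0.0175. In this comparison the adipocyte markers Adipoq, Plin1, Cidec, Lpl, Cfd and Slc2a4 were also called lower and the macrophage marker Cd68 higher (log2 fold change 0.91, edgeR adjusted p = 0.0014), and their part in it was not tested.

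Among laminins, the ratio of Lamb2 to Lamb1 per kilobase varied more than the main trimer. It was 0.371 and 0.378 untreated, 0.388 and 0.435 with A66, 0.385 and 0.392 under palmitate, and 0.456 and 0.443 with both. The libraries with both agents were the highest of the 8. Lamb2 itself had a log2 fold change of 0.098 ± 0.045 and Lamb1 of -0.11 ± 0.041 for A66 in the presence of palmitate, neither called by edgeR (adjusted p = 0.317 and 0.169). Perlecan, the large heparan sulphate proteoglycan of the basement membrane, stayed within a 95% interval of -0.13 to 0.10 on the log2 scale in all 4 treatment comparisons.

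**Figure D5:**
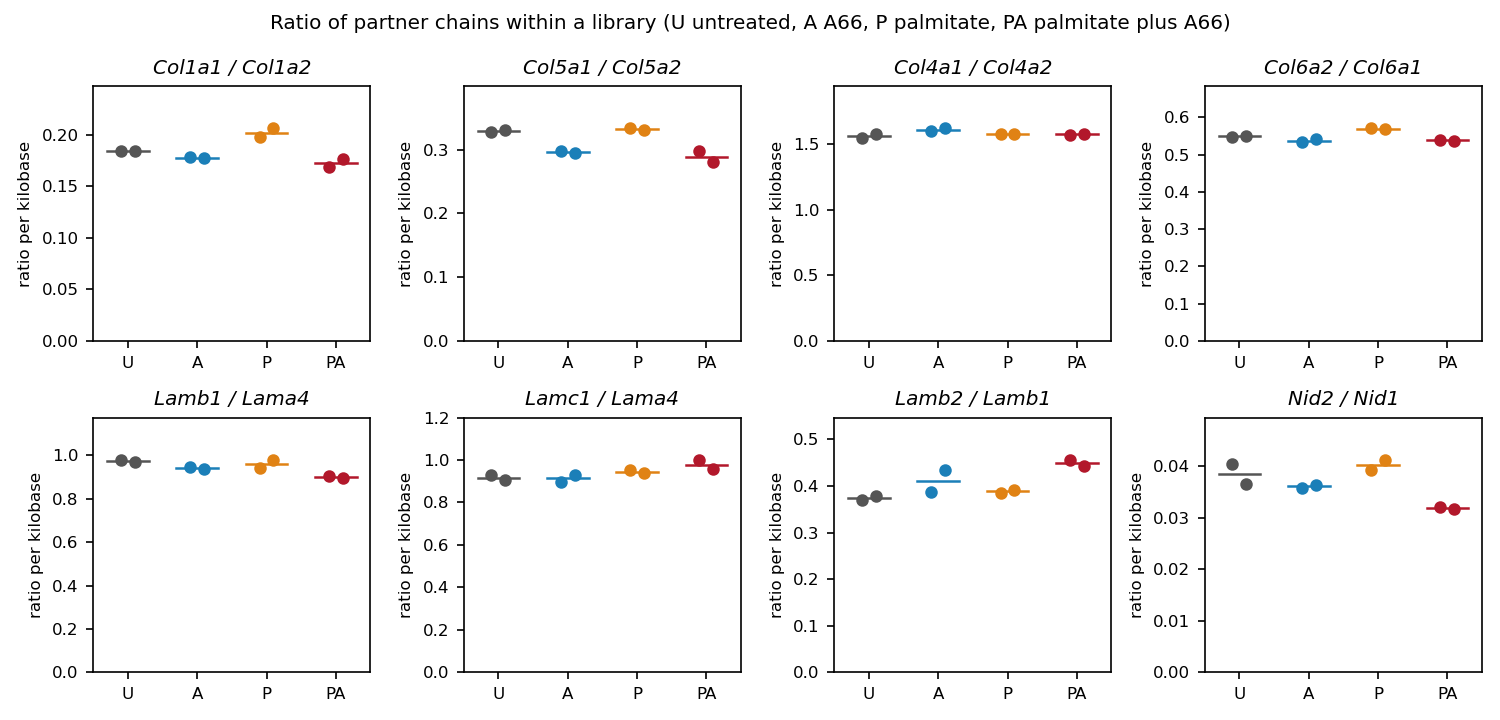
Ratio of the levels per kilobase of 8 pairs of partner or related chains in each library, with the mean of each group as a line. The Col5a1 to Col5a2 ratio is lower in every culture with A66 than in every culture without, the Col1a1 to Col1a2 ratio is highest with palmitate, and the Col4a1 to Col4a2 ratio stays between 1.55 and 1.62.

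The glycoproteins that bind these networks moved little. Fn1 had 3086 and 2935 CPM untreated, 3142 and 3339 with A66, 3114 and 3288 under palmitate, and 3397 and 3304 with both. The untreated libraries were the lowest 2 of the 8, but edgeR called no comparison of Fn1, the largest being 0.11 ± 0.038 for A66 (adjusted p = 0.181), which was called without the filter on low counts and without untreated replicate 1. Sparc had 1506 and 1389.7 CPM untreated, 1381 and 1305 with A66, 1419.7 and 1490 under palmitate, and 1315 and 1367 with both. Its log2 fold change for A66 was -0.11 ± 0.041 without and -0.12 ± 0.047 with palmitate, and neither was called (edgeR adjusted p = 0.253 and 0.22). Without the filter on low counts, Sparc was called lower for A66 in the presence of palmitate.

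Genes that build, cross-link and bind collagen were examined as a list of 54 (50 tested, 49 in the A66 comparison). With palmitate 4 of them rose, Serpinh1 (the collagen chaperone HSP47), P4ha1 (a prolyl hydroxylase subunit) and the fibril-binding proteoglycans Lum and Ogn, and the laminin receptor chain Itga6 fell, so that 4 of 50 were called higher and 1 lower, where 0.631% of all genes were called higher and 0.542% lower. Serpinh1 had 391 and 398 CPM untreated and 461 and 457 with palmitate, without overlap, and a log2 fold change of 0.22 ± 0.039 (edgeR adjusted p = 0.00323). The list's median was 0.062 for palmitate, beside 0.0005 for all genes. With A66 in palmitate-treated cells 6 fell (Creb3l1, Pcolce, Itga6, Itga7, Lum and Ogn) and none was called higher, where 1.84% of all genes were called lower and 0.973% higher. A negative log2 fold change was found for 41 of the 50 and for 7335 of all 14587 genes, and the median was -0.084, beside -0.0008 for all genes. Pcolce enhances procollagen trimming, and Creb3l1 is a transcription factor of procollagen genes and their export. Itga6 was lower in all 4 treatment comparisons: 279 and 276 CPM untreated, 249.9 and 240.1 with A66, 239.9 and 249 under palmitate, and 207 and 216 with both. These comparisons share libraries, and each untreated value was above every other. Itga7, another laminin-binding alpha chain, fell with A66 without palmitate (-0.28 ± 0.047, edgeR adjusted p = 0.00175) and with it (-0.20 ± 0.054, 0.0396), while Itga3, which also binds laminins, was not called in any of these comparisons (log2 fold change -0.046 and 0.19 for A66 without and with palmitate), and no list gene was called higher with A66 in either setting. For A66 without palmitate that was 0 of 49 higher and 2 lower, where 1.07% of all genes were called higher and 0.77% lower. Ddr2, a collagen receptor kinase, was the 1 list gene that rose with palmitate in the presence of A66 (0.20 ± 0.044, edgeR adjusted p = 0.0112). That was 1 of 50 called higher and 1 (Itga6) lower, where 1.46% of all genes were called higher and 1.27% lower. Leaving out 1 library changed these list counts: the rises with palmitate went from 4 to 1 without untreated replicate 2, and the falls with A66 in palmitate-treated cells from 6 to 1 without palmitate replicate 2 and to 2 without palmitate plus A66 replicate 1. The fall of Itga6 with palmitate was not called without either untreated library, without palmitate replicate 1 or with only the untreated and palmitate groups in the fit, and its fall and the rise of Ddr2 in palmitate plus A66 against A66 were not called without A66 replicate 1 or palmitate plus A66 replicate 1. For A66 against untreated, the list gave 1 fall without either A66 library, and 3 rises without untreated replicate 1 and 1 without untreated replicate 2.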

How the data were processed

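Polyadenylated RNA of 8 cultures (2 for each of 4 groups) was made into stranded TruSeq libraries and read as paired ends. The authors aligned the reads with TopHat2 2.0.11 to GRCm38 and deposited whole-number HTSeq counts for each gene, with no normalization. The strand setting, annotation and HTSeq version are not given in the sources used here. The table's 6 other value columns hold the authors' own DESeq2 comparison (mean, log2 fold change, SE, statistic and p-values) and were not used.

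Gene symbols, transcript lengths and coordinates came from GENCODE mouse release 21 (GRCm38), which named 42548 of 43629 gene identifiers. The counts were scaled to CPM with TMM factors and, to compare genes, divided by the kilobases of the longest transcript. Comparisons used edgeR 4.0.16 (R 4.3.3): filterByExpr with a minimum of 10 counts, quasi-likelihood tests and Benjamini-Hochberg adjustment over all genes tested, called at 0.05. A66 against untreated was fitted on the 4 libraries without palmitate and the other comparisons on all 8. The SE was derived from the log2 fold change and the F statistic of the quasi-likelihood test, and 95% intervals were built from that SE. The model was also run on counts simulated from the observed means and edgeR's own fitted dispersions. Such counts meet the assumptions of the model, so they cannot show how it behaves where groups differ in spread. Alternatives were DESeq2 1.42.0, other scalings and filters, a block for the replicate number, corrections for transcript length and GC, other sets of libraries and each library left out. Total counts set the limit for a count of 0: 3 counts are 0.0519 to 0.0706 CPM, and limits of this kind cover counting error only. The 95% intervals of fold changes also take in the spread between cultures, as the fit estimated it. Genes are named where they were among the 4 most abundant of their class, were called, or are chain partners of such a gene, and Nid1, Nid2, Fn1, Hspg2 and Sparc always. Col11a2, Col7a1 and the low or untested genes named in addition were chosen after their values were seen. The members, classes and lists were chosen with earlier results of these data known. Replicates of a group differed by more than counting noise in every group, their chi-square averaging 6.42 to 9.49 over all genes, and for these collagen and laminin genes it was highest in the palmitate group (71.4, against 22.5 to 26.7 in the others). The values of 1 tested gene are not reported here, and it stays in the counts and medians.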

Additional observations from a re-analysis of the deposited data

How the results depend on the processing

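No called log2 fold change of these genes changed sign in any alternative run for the comparison in which it was called, while values near 0 that were not called did so in some. Col1a1 (palmitate), Col28a1 (A66) and Col1a1, Col18a1 and Col6a2 (A66 with palmitate) were called in every alternative run, including each library left out. The counts were less stable. For palmitate, 2 genes were called higher by DESeq2 and 3 without the filter on low counts, and the count of 0 lower became 3 without the filter, 2 with the GC correction, 1 with the replicate block or with the block and the length correction, and 3 with the block and the GC correction. Leaving out 1 library gave 1 to 3 higher and 0 to 3 lower. For A66, 7 were called lower by DESeq2, by library size alone and without the filter, and 1 lower and 1 higher with all 8 libraries in the fit, and leaving out 1 library gave 0 to 7 lower and 1 to 3 higher. For A66 with palmitate, 2 (Col11a2 and Col28a1) were called higher without the filter, with the replicate block and with the block and the length correction, and 1 (Col11a2) with the GC correction, with or without the block. The 8 falls became 10 by DESeq2, 11 without the filter and 9 with library size alone. Leaving out 1 library gave 0 to 1 higher and 4 to 9 lower. For palmitate in the presence of A66, 5 were called lower without the filter, 4 with only those groups in the fit, and 1 with the replicate block, alone or with the length or GC correction, and leaving out 1 library gave 0 to 1 higher and 0 to 1 lower. In the interaction, 1 was called higher without the filter, 2 lower without it and 1 lower by DESeq2, and 0 to 1 lower with 1 library left out. The cause of these shifts was not tested.

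The replicate numbers are shared by the groups, but same-numbered libraries deviated together only weakly (correlations of -0.105 to 0.127 over 11144 genes), so they were not treated as pairs. With the block, alone or with the GC correction, Col6a3 was called lower for A66, and with the block and the length correction Col5a1 was called and Col5a3 was not (edgeR adjusted p = 0.0796). The lowest of these was between A66 and palmitate plus A66, and a block with crossed numbers, added after seeing the data, called 1 higher and 1 lower there. Scaling by library size alone moved the share of all called genes that were higher from 58.2% to 45% for A66, from 34.6% to 23.4% for A66 with palmitate, from 53.5% to 40.4% for palmitate with A66 and from 53.8% to 44.1% for palmitate. With 2 cultures in a group, a library left out leaves a single one, whose spread is assumed to be that of the other groups. The tested collagen and laminin transcripts are long (median 6046 bases, against 2887 over all genes tested) and rich in G and C (55.6% against 49.7%).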
